A study of Mus musculus with 24 samples.

Results

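The 6 libraries described here came from the nucleus accumbens (Acb) of rpS6P-/- mice, 3 of RNA bound to heavy polysomes and 3 of whole lysate, and were chosen by region, genotype and kind of RNA from 24 libraries of the series. The rpS6P-/- mice are knockin animals of mixed C57Bl/6/Sv129/ICR background in which the phosphorylatable serines of ribosomal protein S6 are replaced by alanine in every cell, obtained by crossing heterozygotes. Males and females were used, their age is not given in the sources used here, and each replicate pooled the tissue of several mice. Lysate RNA was taken from the cleared homogenate. The paper describes it as cytosolic, although nuclear RNAs such as *Malat1* were also read in it. The remainder was run on a sucrose gradient from which fractions with 4 or more ribosomes (more than 4 in the labels) were kept as heavy polysomes. Wild-type littermates of the same background and the dorsal striatum (DS) of rpS6P-/- mice, each with 3 heavy polysomal and 3 lysate libraries, were used only where the rpS6P-/- Acb was compared with them. The exchange of single residues cannot be seen in read counts per gene, so the genotype of a library could not be checked.

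An mRNA that is being translated carries several ribosomes at a time, and a gradient separates mRNAs by that number. Position in the gradient follows both how often a ribosome starts on the mRNA and how many ribosomes its coding sequence has room for. Ribosomal protein S6 lies in the small subunit and is phosphorylated by the S6 kinases below mTOR, a pathway known for the translation of TOP mRNAs. TOP mRNAs start with a C followed by a run of pyrimidines, and they encode the ribosomal proteins and several translation factors. The question addressed was how mRNAs of the Acb distribute between lysate and heavy polysomes when rpS6 cannot be phosphorylated.

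To show what such a start looks like, the 30 bases around the RefSeq start of transcription (10 before it and 20 from it) are given for 5 genes whose windows hold or lack a long run, and for *Psmc6*, a proteasome gene, as a contrast. Capitals mark the longest stretch of the window made of C or T and beginning with C. Positions are those of RefSeq on GRCm38.p6, and each window is read 5′ to 3′ on the strand of the gene.
Rps6, chr4:86857348-86857377, minus strand: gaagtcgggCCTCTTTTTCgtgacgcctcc
Rpl15, chr14:18270967-18270996, minus strand: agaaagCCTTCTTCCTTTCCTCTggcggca
Eef1a1, chr9:78481705-78481734, minus strand: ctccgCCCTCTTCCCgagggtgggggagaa
Rpl41, chr10:128549149-128549178, minus strand: gggccggCTCggaagtgacgacaccgagca
Rps28, chr17:33824543-33824572, minus strand: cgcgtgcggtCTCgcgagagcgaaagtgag
Psmc6, chr14:45329814-45329843, plus strand: tcccggcatCCCCTatgagcgacggcttct
The stretch was 10 bases long for *Rps6*, 17 for *Rpl15* and 10 for *Eef1a1*, and it was 3 bases long for *Rpl41* and *Rps28* and 5 for *Psmc6*. A stretch of at least 7 bases stood in the window of 27 of 55 cytosolic ribosomal protein genes with a window (49.1%) and of 17.1% of all 12358 genes tested that had one. Annotated starts can lie some bases from the start used in the Acb, so a short stretch says only that these letters are not in this window. The ribosomal protein genes with and without the stretch had median log2 differences, heavy polysomes minus lysate, of -1.02 and -0.89.

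Libraries held 14015616, 9697531 and 10291084 reads assigned to genes in lysate and 14948045, 33704038 and 17864933 in heavy polysomes (replicates 1, 2 and 3). The second heavy polysomal library was therefore the deepest. The third replicate stood apart in its ratios. Its median log2 ratio for the shortest coding sequences was -1.44, against -0.32 and -0.70 in the others, and results resting on it are given with and without it. Genes that define the medium spiny neurons of the striatum were present, with *Ppp1r1b* (the phosphoprotein DARPP-32) at 849, 1032 and 995 CPM in lysate and *Drd1a* (the D1 dopamine receptor) at 255, 262 and 233 CPM. Fewer cells of a type and less RNA per cell cannot be told apart in such bulk samples. Levels are in CPM, the reads of a gene scaled to a common library size with TMM factors, and are listed for replicates 1, 2 and 3.

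Of 15721 genes tested, 1320 (8.40%) were higher and 1552 (9.87%) lower in heavy polysomes than in lysate at an adjusted p under 0.05. Those higher were modestly so, with a median log2 difference of 0.71, and 152 of them passed 2-fold, while those lower had a median of -0.93 and 661 passed 2-fold. The ranges of both fractions did not overlap for 2889 genes that were higher (18.4%) and 2418 that were lower (15.4%). The median over all genes was 0.08. Without replicate 3 the counts were 1286 higher and 1436 lower, without replicate 1 they were 732 and 1087, and without replicate 2 they were 287 and 860. Thus the size of the called set depended most on replicate 2.

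**Figure D1:**
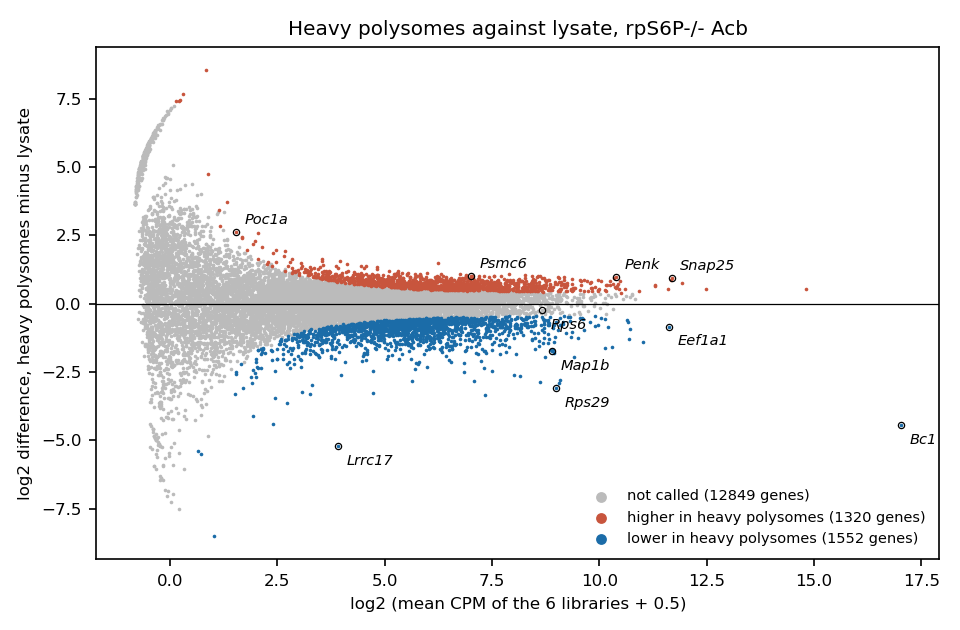
Log2 difference of each of 15721 genes between heavy polysomes and lysate (vertical axis) against the log2 mean CPM of the 6 libraries plus 0.5 (horizontal axis), with called genes in red (1320 higher) and blue (1552 lower) and some genes ringed and named. The named genes run from *Lrrc17* at -5.21 to *Poc1a* at 2.62, and *Bc1*, at the highest level, lies at -4.43.

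The noncoding RNA *Bc1*, a short RNA polymerase III transcript carried into dendrites, was the most abundant feature of the lysates and far lower in heavy polysomes. It took 26.1, 21.5 and 20.9% of lysate reads and 2.10, 0.897 and 1.16% of heavy polysomal reads. Its level was 19199, 7963 and 10426 CPM in heavy polysomes and 301529, 231219 and 229418 CPM in lysate (log2 difference -4.43 ± 0.10, with an adjusted p too small for the software to write), and every heavy polysomal library was below every lysate. Leaving *Bc1* out before scaling gave 1332 genes higher and 1524 lower.

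Several other noncoding RNAs were lower too. Of 14 long noncoding RNAs tested from the list, 0 were called higher and 9 lower, with a median of -1.32. *Malat1*, a nuclear RNA of speckles, was at 249, 217 and 205 CPM in heavy polysomes and 566, 654 and 1037 CPM in lysate (log2 difference -1.71 ± 0.17, adjusted p 1.23e-20). *Meg3*, from the imprinted Dlk1 region, was at 961, 978 and 945 CPM in heavy polysomes and 2016, 2359.8 and 2732 CPM in lysate (log2 difference -1.29 ± 0.15, adjusted p 3.96e-15). *Neat1*, the scaffold of paraspeckles, had a log2 difference of -2.04 ± 0.27 (adjusted p 5.17e-12). These 3 were lower in all heavy polysomal libraries than in any lysate, while *Peg13*, an imprinted transcript, had a difference of 0.36 (adjusted p 0.140) and was not called. Spliced host transcripts of small nucleolar RNAs, most of which code for no protein, had the lowest median of all lists, -2.08 over 11 tested, with 7 called lower and 0 higher. *Gas5* was at 42.7, 26.8 and 33.6 CPM in heavy polysomes and 175, 176 and 232 CPM in lysate (log2 difference -2.51 ± 0.20, adjusted p 2.38e-34). *Snhg8* was at 7.09, 4.22 and 3.69 CPM in heavy polysomes and 47.1, 47.1 and 46.6 CPM in lysate (log2 difference -3.29 ± 0.27, adjusted p 3.61e-30), and its reads may include those of a small nucleolar RNA inside it. Over all 186 genes annotated as long noncoding RNA with at least 50 reads on average, 67 were lower and 0 higher, with a median of -0.67, whereas 11618 protein-coding genes had a median of 0.07 with 1304 higher and 1449 lower.

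Among the cytosolic ribosomal proteins most mRNAs were lower in heavy polysomes. In the small subunit 26 of 30 genes tested were called lower and 0 higher (median -1.002), and in the large subunit 32 of 45 were lower and 0 higher (median -0.88). Summed over the small subunit, levels were 4567 to 6472 CPM in heavy polysomes and 11840.0 to 12401 CPM in lysate. The list medians within replicates 1, 2 and 3 were -0.79, -0.83 and -1.39 for the small subunit and -0.69, -0.73 and -1.15 for the large. Each replicate was thus on the lower side, the third the most. Fitted without replicate 3 the medians were -0.75 and -0.69.

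The ribosomal protein mRNAs differed widely among themselves. *Rps29*, the lowest of the small subunit, was at 152, 91.4 and 90.5 CPM in heavy polysomes and 969, 894 and 873 CPM in lysate (log2 difference -3.08 ± 0.18, adjusted p 1.74e-62), 8.45 times lower. *Rps28* was at 43.6, 32.3 and 26.5 CPM in heavy polysomes and 229, 241 and 236 CPM in lysate (log2 difference -2.81 ± 0.20, adjusted p 2.81e-43). *Rps21* was at 126, 72.9 and 52.1 CPM in heavy polysomes and 499, 489 and 480.4 CPM in lysate (log2 difference -2.64 ± 0.18, adjusted p 5.78e-43). *Rps12* had a log2 difference of -2.61 ± 0.19 (adjusted p 1.63e-41), and for these 4 genes the fractions did not overlap. *Rpl41*, which encodes the shortest ribosomal protein, was at 139, 75.3 and 78.3 CPM in heavy polysomes and 651, 686 and 714 CPM in lysate (log2 difference -2.87 ± 0.18, adjusted p 1.26e-52), and *Rpl39* was at 81.8, 57.5 and 37.6 CPM in heavy polysomes and 271, 219 and 235 CPM in lysate (log2 difference -2.09 ± 0.19, adjusted p 1.69e-25). At the other end stood *Rpl15* at 363, 385 and 363 CPM in heavy polysomes and 357, 326 and 363 CPM in lysate (log2 difference 0.09 ± 0.17, adjusted p 0.813) and *Rpl10a* at 236, 175 and 167 CPM in heavy polysomes and 194, 172 and 182 CPM in lysate (log2 difference 0.06 ± 0.18, adjusted p 0.875), neither of which was called. Across the ribosomal protein genes the log2 difference was greater at longer coding length, with a Spearman rho of 0.73 over 45 large subunit genes and 0.58 over 30 small subunit genes, given as a description since the genes share libraries. Counting could split reads between ribosomal protein genes and their many processed copies, so values of single genes such as *Rps27* (18.7 reads on average) are uncertain.

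*Rps6* itself, the gene that carries the mutations, was among the 4 small subunit genes that were not called. It was at 384, 387 and 344.5 CPM in heavy polysomes and 455, 452 and 411 CPM in lysate (log2 difference -0.24 ± 0.17, adjusted p 0.375). Heavy polysomal values were below all lysate values, and the log2 ratios of the 3 replicates were -0.24, -0.22 and -0.25. With the trend on coding length removed, *Rps6* was called lower (-0.50, adjusted p 0.00402). The others not called were *Rps9* (-0.37 ± 0.17), *Rps13* (-0.34 ± 0.18) and *Rps27* (-1.27 ± 1.37).

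Beyond the ribosome, 17 other TOP mRNAs were tested, of which 7 were lower and 1 higher (median -0.34). *Eef1a1*, which encodes the elongation factor that delivers aminoacyl-tRNA, was at 2289, 2098 and 2415 CPM in heavy polysomes and 4278, 3904 and 4012 CPM in lysate (log2 difference -0.84 ± 0.14, adjusted p 1.17e-07). *Eef2*, the translocation factor, was at 588, 486 and 571 CPM in heavy polysomes and 1025, 1065 and 1074 CPM in lysate (log2 difference -0.95 ± 0.16, adjusted p 1.75e-07). *Pabpc1*, the cytoplasmic poly(A)-binding protein, was at 77.4, 63.9 and 76.0 CPM in heavy polysomes and 166, 208 and 194 CPM in lysate (log2 difference -1.38 ± 0.19, adjusted p 1.67e-11). All 3 have coding sequences far longer than most ribosomal protein genes, and none of their libraries overlapped between fractions. *Eef1g*, *Eef1b2* and *Eif4b* were also lower, with log2 differences between -0.70 and -0.47. *Npm1*, a nucleolar chaperone, was higher at 319.6, 346 and 436 CPM in heavy polysomes and 237, 235 and 321 CPM in lysate (log2 difference 0.48 ± 0.17, adjusted p 0.0325), although its fractions overlapped. *Tpt1* (-0.34), *Fau* (-0.44), *Gnb2l1* (-0.31) and *Nap1l1* (0.28) were not called. Other TOP mRNAs called higher and lower numbered 0 and 6 without replicate 1, 0 and 4 without replicate 2, 1 and 7 without replicate 3, and 0 and 11 with the length trend removed, and the median over these fits ranged from -0.51 to -0.32.

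Initiation factors had a median of 0.21, with 8 of 41 higher and 5 lower, against 8.40% higher and 9.87% lower among all genes. *Eif4g1*, the scaffold that joins the cap-binding protein to the small subunit, was at 53.0, 58.0 and 61.7 CPM in heavy polysomes and 129.8, 146 and 127 CPM in lysate (log2 difference -1.23 ± 0.19, adjusted p 1.24e-08), and *Eif3c*, a core subunit of factor 3, was at 72.5, 77.1 and 98.9 CPM in heavy polysomes and 173, 185 and 158 CPM in lysate (log2 difference -1.06 ± 0.19, adjusted p 5.16e-07). *Eif6*, which keeps the large subunit from joining, was at 52.3, 50.4 and 46.6 CPM in heavy polysomes and 20.4, 20.9 and 34.02 CPM in lysate (log2 difference 1.03 ± 0.23, adjusted p 1.56e-04), and *Eif3g* had a difference of 0.72 ± 0.19 (adjusted p 0.00204). Initiation factors called higher and lower numbered 4 and 2 without replicate 1, 2 and 2 without replicate 2, 12 and 5 without replicate 3, and 6 and 5 with the length trend removed, and the median over these fits ranged from 0.09 to 0.20. In a list of the S6 kinase and mTOR pathway, which also holds *Rps6* itself, 5 of 22 genes were lower and 0 higher (median -0.12). Not all of its genes act upstream of rpS6. The shares of all genes given above apply here too. The called genes were the kinase *Mtor* (-1.27 ± 0.21, adjusted p 6.83e-08), its partners *Rictor* (-0.99 ± 0.23, adjusted p 2.37e-04) and *Rptor* (-0.98 ± 0.23, adjusted p 3.96e-04), its inhibitor *Tsc2* (-0.91 ± 0.21, adjusted p 2.14e-04) and the TOP mRNA-binding protein *Larp1* (-0.67 ± 0.19, adjusted p 0.00474). The S6 kinase *Rps6kb1* had 55.2, 61.8 and 53.6 CPM in heavy polysomes and 41.5, 47.9 and 44.6 CPM in lysate (log2 difference 0.35 ± 0.21, adjusted p 0.272), and was not called. Pathway genes called higher and lower numbered 0 and 5 without replicate 1, 0 and 2 without replicate 2, 3 and 5 without replicate 3, and 1 and 3 with the length trend removed, and the median over these fits ranged from -0.24 to -0.06. With the length trend removed *Mtor* had -0.49, adjusted p 0.0410, and *Rictor* (-0.45, adjusted p 0.122), *Tsc2* (-0.34, adjusted p 0.220) and *Larp1* (-0.40, adjusted p 0.0775) were not called.

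**Figure D2:**
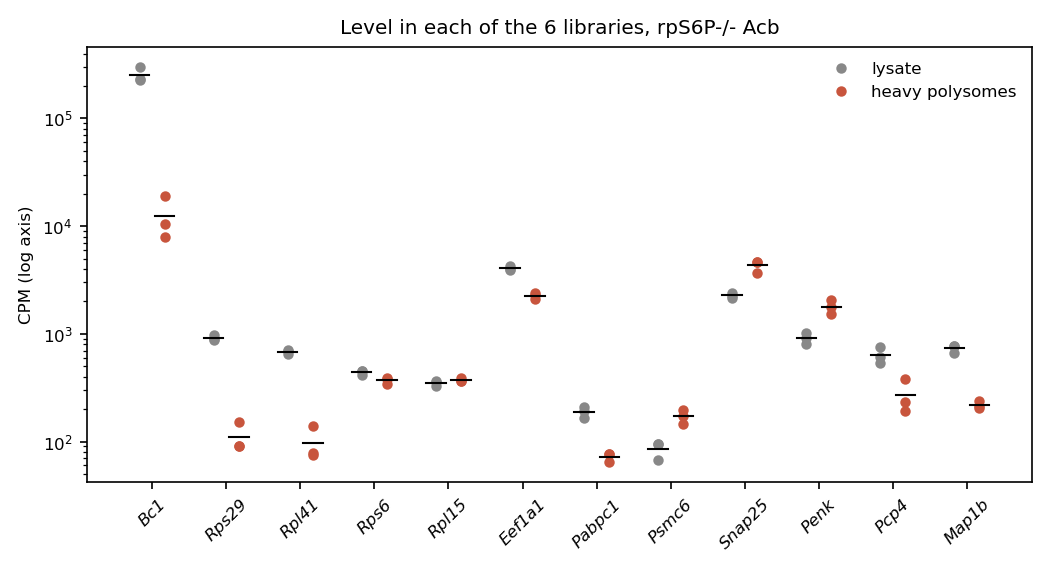
CPM on a log axis of 12 genes in each of the 3 lysate (grey) and 3 heavy polysomal (red) libraries, with a bar at the mean of each fraction. *Bc1*, *Rps29*, *Rpl41*, *Eef1a1*, *Pabpc1*, *Pcp4* and *Map1b* lay lower in every heavy polysomal library, *Psmc6*, *Snap25* and *Penk* higher, while *Rps6* (-0.24) and *Rpl15* (0.09) lay close together in both.

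Loading followed coding length along a curve with its top in the middle, among 11587 genes with a full coding sequence and at least 50 reads on average. Genes with up to 300 coding bases had a median log2 difference of -0.79 (n = 200), and 58.0% of them were called lower against 9.87% of all genes. The median was 0.06 from 301 to 600 bases (n = 1187), 0.35 from 601 to 900 (n = 1545) and 0.37 from 901 to 1200 (n = 1670). It then declined, to 0.16 up to 1800 bases (n = 2761), -0.03 up to 2400 (n = 1596), -0.20 up to 3600 (n = 1515), -0.45 up to 6000 (n = 803) and -0.90 above (n = 310). Of the 310 longest, 61.6% were called lower and 0 higher. Between 601 and 900 bases 26.0% were called higher, against 8.40% of all genes.

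The decline beyond 1200 bases was found in each replicate, but its steepness and the short end differed. In genes over 6000 bases the medians of replicates 1, 2 and 3 were -0.93, -0.94 and -0.67. From 301 to 600 bases they were 0.23, 0.21 and -0.33, so that the third replicate had the opposite sign there. Over the whole range the Spearman rho of coding length with the fitted difference was -0.31, and with the ratios of the replicates -0.41, -0.32 and -0.05. It was 0.35 over 2932 genes up to 900 bases and -0.50 over 8655 longer genes. Fitted without replicate 3 the rho was -0.41. These values describe genes of the same libraries and carry no p. The length of the 5′ and 3′ untranslated regions (rho -0.02 and -0.05), the number of ATG triplets in the 5′ untranslated region (-0.04) and the GC content of the transcript (-0.04) showed next to no relation with the fitted difference. Replicates 1, 2 and 3 differed in sign, however, for GC content (0.15, -0.16 and -0.07) and for 3′ length (-0.14, -0.01 and 0.05). With the trend on coding length removed, 1089 genes were higher and 1229 lower among 14751, and 1658 of the 2872 genes called before remained called.

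**Figure D3:**
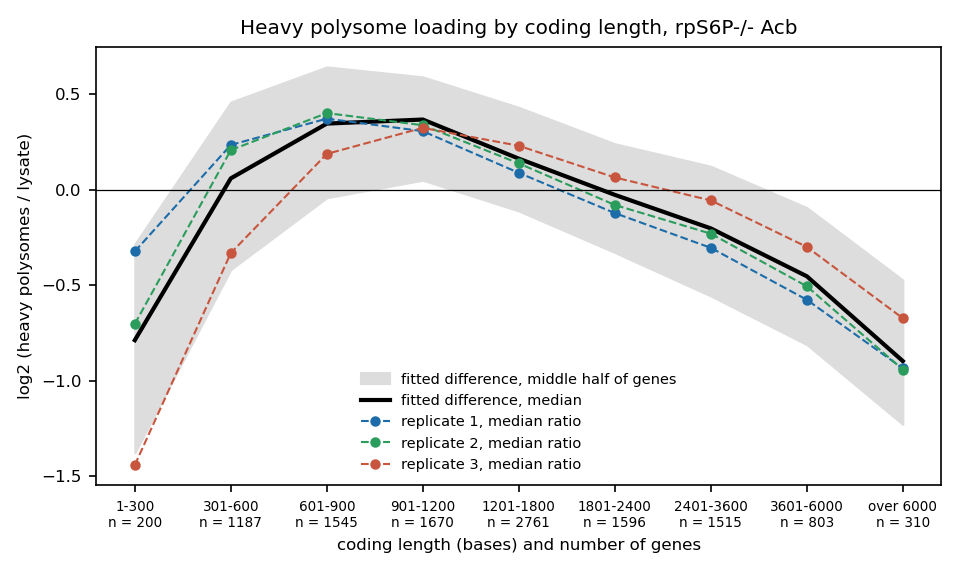
Median log2 ratio of heavy polysomes to lysate in 9 classes of coding length, for each replicate (dashed) and for the fitted difference (black line, with the quartiles of the genes in grey), for genes with at least 50 reads on average. All replicates were highest between 601 and 1200 bases and fell toward long coding sequences, and the third lay lowest at the short end, at -1.44.

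With the length trend removed, the medians of the ribosomal protein lists moved little. Their median coding lengths were 480 bases (large subunit) and 453 bases (small subunit). The class from 301 to 600 bases had a median of 0.06, so removing the curve could shift these medians only slightly. The small shift therefore does not show that loading in these lists was independent of length. The median of the large subunit genes was -0.87 with 34 of 45 lower, that of the small subunit genes -1.01 with 28 of 30 lower, and 0 genes were higher. Single genes moved more, with *Rpl41* going from -2.87 to -1.78, *Rpl39* from -2.09 to -1.12 and *Rps29* from -3.08 to -2.19. *Rps12* hardly moved (-2.61 to -2.57), and *Rps6* and *Rps9* moved away from 0, to -0.50 and -0.51. The median of the other TOP mRNAs moved from -0.34 to -0.51, with 11 of 17 lower and 0 higher. Chromatin remodelers, with a median coding length of 5133 bases, moved from a median of -0.60 (25 of 53 lower, 0 higher) to -0.05 (7 lower, 2 higher).

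**Figure D4:**
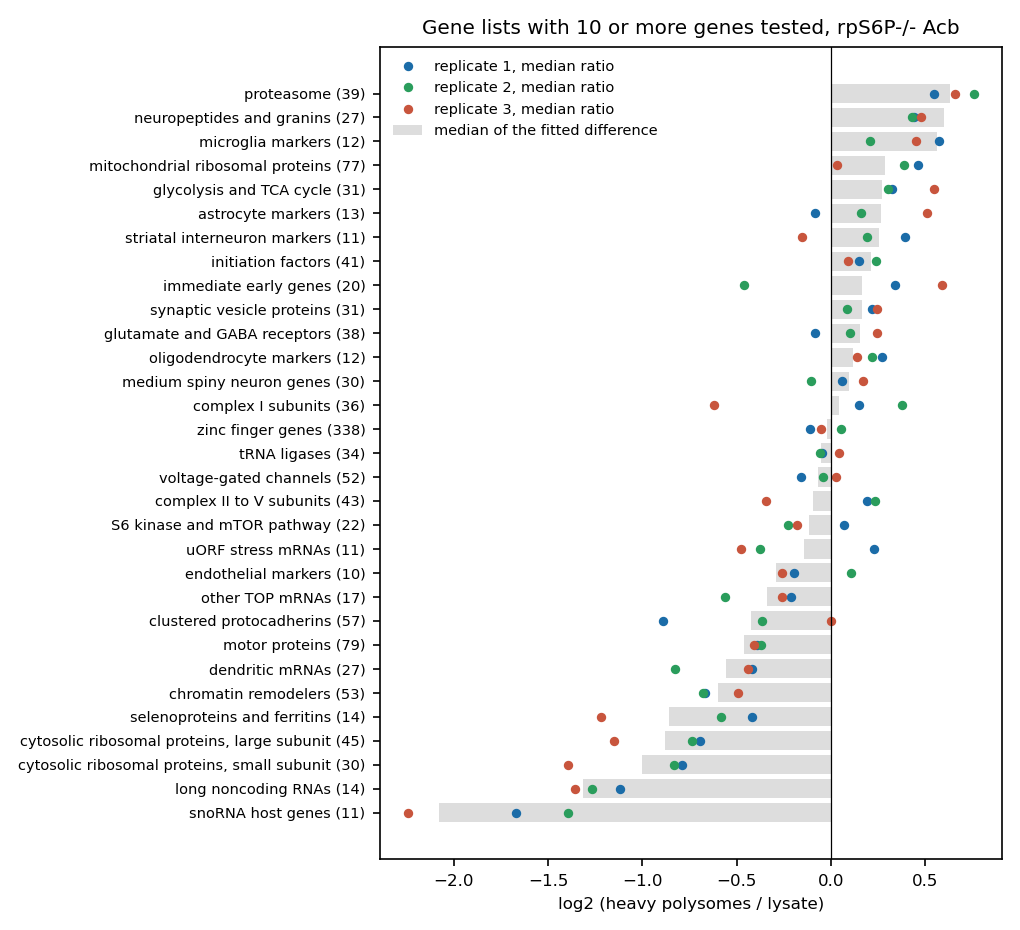
Median log2 ratio of heavy polysomes to lysate for each gene list with at least 10 genes tested (number in parentheses), as the median fitted difference (grey bar) and the median ratio of each replicate (points). Lists run from small nucleolar RNA hosts at -2.08 to the proteasome at 0.63, and complex I and complexes II to V show the third replicate apart from the others.

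Most genes of the proteasome, the complex that degrades ubiquitinated proteins, were higher. Of 39 tested, 27 were called higher and 0 lower, and the median was 0.63, with 0.55, 0.76 and 0.66 in the replicates. *Psmc6*, an ATPase of the regulatory particle, was at 145, 173 and 194 CPM in heavy polysomes and 94.5, 66.8 and 95.8 CPM in lysate (log2 difference 1.004 ± 0.19, adjusted p 2.99e-06). *Psmb4*, a subunit of the core, was at 179, 143 and 155 CPM in heavy polysomes and 79.9, 64.9 and 98.3 CPM in lysate (log2 difference 0.99 ± 0.19, adjusted p 4.62e-06). The largest subunits of the regulatory particle, *Psmd1* (-0.27 ± 0.18, adjusted p 0.350) and *Psmd2* (-0.22 ± 0.18, adjusted p 0.467), had the lowest values among genes with at least 50 reads on average and were not called. Proteasome genes called higher and lower numbered 19 and 0 without replicate 1, 7 and 0 without replicate 2, 20 and 0 without replicate 3, and 14 and 0 with the length trend removed, and the median over these fits ranged from 0.41 to 0.70.

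The nuclear-encoded subunits of the respiratory chain fell on both sides. Of 36 complex I genes, 10 were higher and 9 lower (median 0.05), and of 43 genes of complexes II to V, 9 were higher and 13 lower (median -0.09). Among all genes 8.40% were higher and 9.87% lower. *Ndufa3* was at 52.6, 37.1 and 28.1 CPM in heavy polysomes and 109, 125 and 124 CPM in lysate (log2 difference -1.65 ± 0.20, adjusted p 3.24e-14) and *Ndufa1* at 65.7, 54.7 and 29.5 CPM in heavy polysomes and 125, 134 and 162 CPM in lysate (log2 difference -1.55 ± 0.20, adjusted p 6.64e-13), both small accessory subunits. *Ndufs8*, an iron-sulfur subunit, was at 135, 146 and 120.1 CPM in heavy polysomes and 78.0, 79.4 and 70.5 CPM in lysate (log2 difference 0.82 ± 0.19, adjusted p 2.81e-04), and *Ndufa9* at 183, 229.9 and 221 CPM in heavy polysomes and 109, 111 and 142 CPM in lysate (log2 difference 0.81 ± 0.18, adjusted p 1.62e-04). In the ATP synthase, *Atp5e* was at 65.6, 36.6 and 28.1 CPM in heavy polysomes and 167, 196 and 192 CPM in lysate (log2 difference -2.18 ± 0.20, adjusted p 7.53e-26) and *Atp5k* had a difference of -1.54 ± 0.19 (adjusted p 1.49e-13), whereas *Atp5f1* was at 456, 543 and 477 CPM in heavy polysomes and 249, 219 and 289 CPM in lysate (log2 difference 0.97 ± 0.17, adjusted p 7.46e-07) and *Atp5c1* had a difference of 0.81 ± 0.17 (adjusted p 6.63e-05). The rho of the difference with coding length was 0.46 over the 36 genes and 0.79 over the 43. Replicate 3 differed from the others here, with medians of -0.62 and -0.35 against 0.15 and 0.19 in replicate 1 and 0.38 and 0.23 in replicate 2. Fitted without it, the medians were 0.28 and 0.22. Complex I genes called higher and lower numbered 3 and 8 without replicate 1, 0 and 7 without replicate 2, 13 and 6 without replicate 3, and 11 and 10 with the length trend removed, and the median over these fits ranged from -0.22 to 0.28. Genes of complexes II to V called higher and lower numbered 4 and 12 without replicate 1, 2 and 10 without replicate 2, 16 and 11 without replicate 3, and 10 and 8 with the length trend removed, and the median over these fits ranged from -0.15 to 0.22.

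Genes of glycolysis and the TCA cycle also fell on both sides, with 15 of 31 higher, 7 lower and a median of 0.27. Among all genes 8.40% were higher and 9.87% lower. *Tpi1*, triosephosphate isomerase, was at 876, 937 and 1083 CPM in heavy polysomes and 513, 494 and 581 CPM in lysate (log2 difference 0.86 ± 0.16, adjusted p 3.16e-06). *Idh2*, the mitochondrial NADP-dependent isocitrate dehydrogenase, was at 30.4, 31.1 and 44.3 CPM in heavy polysomes and 16.1, 16.3 and 16.1 CPM in lysate (log2 difference 1.10 ± 0.25, adjusted p 2.66e-04). *Hk1*, the hexokinase of brain, was at 92.8, 87.5 and 96.6 CPM in heavy polysomes and 202, 189 and 195 CPM in lysate (log2 difference -1.08 ± 0.18, adjusted p 1.99e-07), and *Pkm*, pyruvate kinase, was at 702, 672 and 844 CPM in heavy polysomes and 1258, 1287 and 1249 CPM in lysate (log2 difference -0.78 ± 0.16, adjusted p 1.88e-05). The kinases of early glycolysis, *Hk1*, *Pfkp* (-0.92) and *Pfkm* (-0.71) were thus lower, and the shorter enzymes *Tpi1*, *Pgam1* (0.80) and *Mdh1* (0.70) higher, and the rho with coding length over the 31 genes was -0.79. Mitochondrial ribosomal proteins were mostly above 0, with 17 of 77 higher and 6 lower (median 0.29), against the same shares of all genes. They ran from *Mrpl33* (-1.35) to *Mrpl1* (1.05). In replicates 1, 2 and 3 the medians of this list were 0.46, 0.39 and 0.04. Mitochondrial ribosomal protein genes called higher and lower numbered 9 and 5 without replicate 1, 3 and 4 without replicate 2, 21 and 2 without replicate 3, and 12 and 4 with the length trend removed, and the median over these fits ranged from 0.20 to 0.43. Glycolysis and TCA cycle genes called higher and lower numbered 11 and 4 without replicate 1, 6 and 4 without replicate 2, 11 and 7 without replicate 3, and 8 and 7 with the length trend removed, and the median over these fits ranged from 0.17 to 0.44.

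Selenoprotein and ferritin mRNAs, whose translation is tied to a selenocysteine element or to iron, had a median of -0.86, with 9 of 14 lower and 3 higher. *Sepw1*, selenoprotein W, was at 168, 124 and 119.8 CPM in heavy polysomes and 873, 1079.9 and 894 CPM in lysate (log2 difference -2.80 ± 0.18, adjusted p 1.77e-53). *Gpx4*, the peroxidase for lipid peroxides, was at 77.6, 56.1 and 37.8 CPM in heavy polysomes and 180.0, 163 and 198 CPM in lysate (log2 difference -1.71 ± 0.19, adjusted p 1.29e-16). *Fth1*, the ferritin heavy chain, was at 499, 363 and 414 CPM in heavy polysomes and 1048, 1079.7 and 934 CPM in lysate (log2 difference -1.27 ± 0.16, adjusted p 8.67e-13). These 3 did not overlap between fractions. *Ftl1*, the light chain, was at 212, 179 and 206 CPM in heavy polysomes and 498, 482 and 483 CPM in lysate (log2 difference -1.30 ± 0.17, adjusted p 8.18e-12). The thioredoxin reductases went the other way, with *Txnrd2* at 7.64, 7.64 and 13.9 CPM in heavy polysomes and 6.92, 1.33 and 2.67 CPM in lysate (log2 difference 1.63 ± 0.45, adjusted p 0.00354) and *Txnrd1* at 0.67 (adjusted p 0.00629). Selenoprotein and ferritin genes called higher and lower numbered 2 and 8 without replicate 1, 0 and 9 without replicate 2, 1 and 7 without replicate 3, and 3 and 10 with the length trend removed, and the median over these fits ranged from -1.02 to -0.59.

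Stress-response mRNAs with upstream open reading frames, which hold ribosomes back from the main frame in unstressed cells, were mostly not called. Of 11 tested, 3 were lower and 0 higher, against 9.87% lower and 8.40% higher among all genes. *Atf4* was at 71.6, 41.8 and 50.8 CPM in heavy polysomes and 82.3, 86.0 and 92.9 CPM in lysate (log2 difference -0.70 ± 0.20, adjusted p 0.00421), *Atf5* at 10.0, 4.35 and 5.15 CPM in heavy polysomes and 11.4, 16.1 and 19.0 CPM in lysate (log2 difference -1.33 ± 0.35, adjusted p 0.00172) and *Ddit3* at 13.7, 9.64 and 9.85 CPM in heavy polysomes and 22.8, 26.7 and 33.1 CPM in lysate (log2 difference -1.32 ± 0.28, adjusted p 5.62e-05). All 3 encode stress transcription factors, and their fractions did not overlap. *Odc1* (0.38) and *Azin1* (0.41), of polyamine metabolism, were not called. Stress-response mRNAs called higher and lower numbered 0 and 3 without replicate 1, 0 and 1 without replicate 2, 0 and 2 without replicate 3, and 0 and 4 with the length trend removed, and the median over these fits ranged from -0.47 to 0.17.

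Among the neuronal lists, secreted peptides had the highest median. Of 27 neuropeptide and granin genes, 11 were higher and 2 lower, and the median was 0.60. *Penk*, proenkephalin, the opioid peptide precursor of indirect-pathway neurons, was at 1766, 1530.3 and 2067 CPM in heavy polysomes and 809, 908 and 1008 CPM in lysate (log2 difference 0.97 ± 0.15, adjusted p 1.70e-08). *Tac1*, the substance P precursor of direct-pathway neurons, was at 401, 513 and 373 CPM in heavy polysomes and 276, 239 and 317 CPM in lysate (log2 difference 0.62 ± 0.17, adjusted p 0.00317), and *Pdyn*, prodynorphin, was at 357, 356 and 468 CPM in heavy polysomes and 279, 263 and 231 CPM in lysate (log2 difference 0.60 ± 0.17, adjusted p 0.00487). The interneuron peptides *Npy* and *Sst* had differences of 0.97 ± 0.19 (adjusted p 1.89e-05) and 0.82 ± 0.18 (adjusted p 1.06e-04), and *Adcyap1*, the PACAP precursor, was at 4.22, 3.504 and 5.05 CPM in heavy polysomes and 2.89, 0.556 and 0.107 CPM in lysate (log2 difference 2.45 ± 0.84, adjusted p 0.0234). The list's lower genes were *Vgf*, a granin, at 76.9, 43.6 and 85.2 CPM in heavy polysomes and 133, 130.4 and 120.1 CPM in lysate (log2 difference -0.95 ± 0.19, adjusted p 2.05e-05) and *Pcsk1n*, an inhibitor of prohormone convertase, at -0.69 ± 0.19 (adjusted p 0.00424). *Crh*, *Nts*, *Scg5*, *Vip* and *Cpe* completed the genes that were higher, from 0.62 to 1.74. Neuropeptide and granin genes called higher and lower numbered 9 and 2 without replicate 1, 7 and 0 without replicate 2, 9 and 3 without replicate 3, and 10 and 3 with the length trend removed, and the median over these fits ranged from 0.35 to 0.56.

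Synaptic vesicle genes were near the overall median (0.16), with 7 of 31 higher and 4 lower. *Snap25*, a SNARE of the plasma membrane, was at 3707, 4660.5 and 4636 CPM in heavy polysomes and 2170.3, 2417 and 2223 CPM in lysate (log2 difference 0.93 ± 0.14, adjusted p 3.32e-09), and *Rab3a*, a GTPase of synaptic vesicles, was at 596, 627 and 704 CPM in heavy polysomes and 344, 358 and 479 CPM in lysate (log2 difference 0.72 ± 0.17, adjusted p 2.69e-04). *Unc13a*, the vesicle-priming factor, was at 47.9, 47.8 and 62.6 CPM in heavy polysomes and 147, 144 and 137 CPM in lysate (log2 difference -1.45 ± 0.19, adjusted p 8.18e-12). Its coding sequence is far longer than those of *Snap25* and *Rab3a*. Synaptic vesicle genes called higher and lower numbered 4 and 1 without replicate 1, 2 and 1 without replicate 2, 11 and 5 without replicate 3, and 4 and 4 with the length trend removed, and the median over these fits ranged from 0.12 to 0.23. Of 30 genes that mark medium spiny neurons, 3 were higher and 3 lower (median 0.09), against 8.40% higher and 9.87% lower among all genes. *Ppp1r1b* was at 1621, 1306 and 1836 CPM in heavy polysomes, above all its lysate values (log2 difference 0.72 ± 0.15, adjusted p 7.15e-05), and *Gpr6*, a receptor of indirect-pathway neurons, had a difference of 0.96 ± 0.26 (adjusted p 0.00245). *Pcp4*, a small calmodulin regulator, was at 379.8, 235 and 194 CPM in heavy polysomes and 533, 608 and 759 CPM in lysate (log2 difference -1.28 ± 0.17, adjusted p 1.44e-11), *Arpp21* was at 1359.7, 1191 and 962 CPM in heavy polysomes and 2232, 2292 and 2098 CPM in lysate (log2 difference -0.93 ± 0.15, adjusted p 4.06e-08), and *Rgs9* had a difference of -0.87 ± 0.17 (adjusted p 1.95e-05). The dopamine receptors *Drd1a* (0.13 ± 0.17, adjusted p 0.709) and *Drd2* (-0.50 ± 0.20, adjusted p 0.0613) were not called. Medium spiny neuron genes called higher and lower numbered 1 and 5 without replicate 1, 1 and 3 without replicate 2, 4 and 3 without replicate 3, and 2 and 5 with the length trend removed, and the median over these fits ranged from 0.00 to 0.11.

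Messenger RNAs known in dendrites had a median of -0.56, with 16 of 27 lower and 1 higher. *Map1b*, a large microtubule-binding protein, was at 205, 214 and 239.6 CPM in heavy polysomes and 777, 767 and 667 CPM in lysate (log2 difference -1.75 ± 0.17, adjusted p 6.21e-22), and the related *Map1a* at 225, 209 and 232 CPM in heavy polysomes and 706, 774 and 657 CPM in lysate (log2 difference -1.68 ± 0.17, adjusted p 2.76e-20). *Camk2a*, the kinase of the postsynaptic density, was at 666, 714 and 1062 CPM in heavy polysomes and 1094, 1221 and 974 CPM in lysate (log2 difference -0.46 ± 0.16, adjusted p 0.0246), and its heavy polysomal library of replicate 3 overlapped the lysates. *Dlgap1* was higher (0.46 ± 0.18, adjusted p 0.0472). Dendritic mRNAs called higher and lower numbered 0 and 12 without replicate 1, 0 and 6 without replicate 2, 0 and 17 without replicate 3, and 5 and 7 with the length trend removed, and the median over these fits ranged from -0.67 to -0.15. Motor proteins had 21 of 79 lower and 1 higher (median -0.46). *Kif3a*, a subunit of kinesin II, was at 125, 107 and 146 CPM in heavy polysomes and 1133, 870.2 and 835 CPM in lysate (log2 difference -2.91 ± 0.18, adjusted p 4.52e-57), and *Dync1h1*, the heavy chain of dynein, was at 60.7, 51.3 and 44.1 CPM in heavy polysomes and 254, 288 and 251 CPM in lysate (log2 difference -2.35 ± 0.19, adjusted p 3.32e-32). Motor protein genes called higher and lower numbered 0 and 17 without replicate 1, 0 and 14 without replicate 2, 1 and 19 without replicate 3, and 3 and 10 with the length trend removed, and the median over these fits ranged from -0.51 to -0.13.

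Most receptor and channel genes were not called, like 12849 of all 15721 genes tested. Of 38 glutamate and GABA receptor genes, 1 was higher and 2 lower (median 0.15). *Grin1*, the obligatory subunit of NMDA receptors, was at 110.3, 102 and 137 CPM in heavy polysomes and 214, 228 and 199.9 CPM in lysate (log2 difference -0.89 ± 0.18, adjusted p 2.63e-05), *Grin2b* had a difference of -0.76 ± 0.25 (adjusted p 0.0185), and *Gabrg1* was at 84.6, 112 and 104 CPM in heavy polysomes and 74.9, 50.0 and 45.6 CPM in lysate (log2 difference 0.84 ± 0.20, adjusted p 3.70e-04). Receptor genes called higher and lower numbered 1 and 1 without replicate 1, 0 and 1 without replicate 2, 1 and 3 without replicate 3, and 5 and 1 with the length trend removed, and the median over these fits ranged from 0.08 to 0.21. Of 52 voltage-gated channel genes, 6 were lower and 0 higher, against 9.87% lower and 8.40% higher among all genes. The lowest were the calcium channels *Cacna1e* (-1.32 ± 0.19, adjusted p 1.98e-10) and *Cacna1h* (-1.18 ± 0.25, adjusted p 8.13e-05). Channel genes called higher and lower numbered 0 and 3 without replicate 1, 0 and 2 without replicate 2, 0 and 8 without replicate 3, and 0 and 1 with the length trend removed, and the median over these fits ranged from -0.13 to 0.14. Among the 53 chromatin remodelers, *Trrap*, a scaffold of acetyltransferase complexes, was at 29.3, 33.2 and 33.1 CPM in heavy polysomes and 117, 102 and 68.7 CPM in lysate (log2 difference -1.56 ± 0.21, adjusted p 6.32e-12), and *Chd8*, a helicase, had a difference of -1.47 ± 0.21 (adjusted p 7.07e-10). Chromatin remodelers called higher and lower numbered 0 and 19 without replicate 1, 1 and 17 without replicate 2, 0 and 28 without replicate 3, and 2 and 7 with the length trend removed, and the median over these fits ranged from -0.68 to -0.05.

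Cells other than neurons were seen in both fractions. The counts called in each marker list stand against 8.40% higher and 9.87% lower among all genes. Oligodendrocyte markers summed to 5223 to 5536 CPM in heavy polysomes and 3539.7 to 4457 CPM in lysate, with 3 of 12 higher and 1 lower. Astrocyte markers summed to 4359.9 to 5295 CPM in heavy polysomes and 4003 to 5127 CPM in lysate, with 2 of 13 higher and 2 lower. Microglia markers summed to 428 to 465 CPM in heavy polysomes and 308 to 345.4 CPM in lysate, with 5 of 12 higher and 1 lower. Endothelial markers were scarce, at 57.5 to 75.4 CPM in heavy polysomes and 44.7 to 55.7 CPM in lysate, with 1 of 10 higher and 0 lower. The sums of oligodendrocyte, microglia and endothelial markers were higher in each heavy polysomal library than in any lysate, and those of astrocytes overlapped. The endothelial sum did not describe most of its members. Their median was -0.29, 6 of 10 were negative, and 3 had at least 50 reads on average. Striatal interneuron markers summed to 456 to 679.8 CPM in heavy polysomes and 381 to 393 CPM in lysate (3 of 11 higher, 2 lower), cortical excitatory neuron markers to 156 to 256 CPM in heavy polysomes and 123 to 284 CPM in lysate (0 of 7 called) and choroid plexus markers to 150.4 to 176 CPM in heavy polysomes and 159 to 187 CPM in lysate (0 of 6 called). *Ermn*, a cytoskeletal protein of myelinating cells, was at 167, 170.0 and 155 CPM in heavy polysomes and 105, 89.0 and 78.1 CPM in lysate (log2 difference 0.86 ± 0.18, adjusted p 7.39e-05), while *Mobp*, a myelin gene, was at 87.6, 71.0 and 50.5 CPM in heavy polysomes and 144, 118 and 132 CPM in lysate (log2 difference -0.94 ± 0.19, adjusted p 2.20e-05). *Ctss*, a microglial protease, was at 77.0, 70.9 and 78.8 CPM in heavy polysomes and 41.7, 33.8 and 40.5 CPM in lysate (log2 difference 0.97 ± 0.21, adjusted p 6.58e-05), and *Itgam*, a microglial integrin, was at 5.74, 3.71 and 3.08 CPM in heavy polysomes and 14.6, 13.8 and 10.1 CPM in lysate (log2 difference -1.65 ± 0.38, adjusted p 2.93e-04). *Slc1a3*, an astrocyte glutamate transporter, had a difference of -0.53 ± 0.17 (adjusted p 0.0147), and *Gfap*, an intermediate filament of astrocytes, 0.77 ± 0.20 (adjusted p 0.00193). Oligodendrocyte markers called higher and lower numbered 2 and 1 without replicate 1, 2 and 1 without replicate 2, 4 and 2 without replicate 3, and 3 and 1 with the length trend removed, and the median over these fits ranged from 0.06 to 0.21. Astrocyte markers called higher and lower numbered 1 and 1 without replicate 1, 0 and 1 without replicate 2, 2 and 3 without replicate 3, and 2 and 2 with the length trend removed, and the median over these fits ranged from -0.00 to 0.40. Microglia markers called higher and lower numbered 3 and 1 without replicate 1, 2 and 1 without replicate 2, 4 and 2 without replicate 3, and 1 and 1 with the length trend removed, and the median over these fits ranged from 0.31 to 0.72. Interneuron markers called higher and lower numbered 2 and 1 without replicate 1, 2 and 2 without replicate 2, 3 and 2 without replicate 3, and 3 and 2 with the length trend removed, and the median over these fits ranged from -0.11 to 0.62. The part of cell types in other results was not tested.

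The 10 genes with the largest differences in each direction, among called genes whose fractions did not overlap and whose mean was 50 reads or more, included several from the lists above (*Bc1*, *Snhg8* and *Rps29* below, and *Adcyap1*, *Vip* and *Txnrd2* above). *Lrrc17*, a secreted leucine-rich repeat protein, was the lowest of all, at 1.34, 0.527 and 0.606 CPM in heavy polysomes and 25.2, 33.9 and 26.6 CPM in lysate (log2 difference -5.21 ± 0.37, adjusted p 1.07e-40). *Gm20594*, an open reading frame of few codons, was at 43.6, 21.3 and 26.0 CPM in heavy polysomes and 311, 307 and 266 CPM in lysate (log2 difference -3.35 ± 0.20, adjusted p 6.61e-60), and *Loxl2*, a lysyl oxidase, was at 2.32, 1.34 and 1.47 CPM in heavy polysomes and 17.3, 16.9 and 15.4 CPM in lysate (log2 difference -3.31 ± 0.40, adjusted p 2.37e-14). Every heavy polysomal library was below every lysate for these 3 genes. *Gng13*, a G protein gamma subunit, *Pbld1*, *Vmn2r-ps129*, a pseudogene, and *Rpph1*, the RNA of RNase P, had differences of -3.22 ± 0.43, -4.41 ± 0.63, -3.47 ± 0.57 and -3.62 ± 0.55. *Rpph1* lies within another gene on the same strand, so its reads could not be assigned with certainty, and *Loxl2* contains a microRNA gene on its strand. At the other end *Poc1a*, a centriolar protein, was at 2.81, 4.93 and 4.65 CPM in heavy polysomes and 0.577, 1.22 and 0.320 CPM in lysate (log2 difference 2.62 ± 0.85, adjusted p 0.0149), and *Pgam2*, the muscle phosphoglycerate mutase, was at 15.4, 15.9 and 19.7 CPM in heavy polysomes and 6.76, 4.33 and 5.33 CPM in lysate (log2 difference 1.64 ± 0.34, adjusted p 4.26e-05). *Kcnj5*, *H2-T23*, *Mettl20*, *Tex30* and *Pvrl3* lay between 1.87 and 2.31, all from few reads, and in lysate *Tex30* had 4.37, 0 and 3.20 CPM.

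To see where loading in rpS6P-/- mice differed from wild-type, the log2 difference between heavy polysomes and lysate was compared between genotypes over the 12 Acb libraries. Levels in comparisons between groups are scaled over all 24 libraries and so differ slightly from those above. Of 16687 genes, 22 (0.132%) had a higher and 84 (0.503%) a lower difference in rpS6P-/- mice. Short coding sequences held most of the latter, with 42 of 200 genes up to 300 bases and 34 of 1187 from 301 to 600 bases. The median difference between genotypes was -0.72 in the shortest class and 0.17 from 3601 to 6000 bases. Complex I had 9 of 36 genes lower and 0 higher, complexes II to V had 13 of 44 lower and 1 higher, and the large and small ribosomal subunits had 2 of 45 and 1 of 30 lower. Median coding lengths of complex I and of complexes II to V were 450 and 387 bases. All genes from 301 to 600 bases had a median genotype difference of -0.49. With the length trend removed, 9 of 15469 genes remained lower, and those within these lists were not counted. *Atox1*, a copper chaperone, had a genotype difference of -1.45 ± 0.29, adjusted p 0.00138, with 27.1, 20.1 and 9.28 CPM in heavy polysomes and 41.8, 44.5 and 39.7 CPM in lysate of rpS6P-/- mice. In wild-type mice it had 63.3, 42.5 and 35.7 CPM in heavy polysomes and 41.3, 42.0 and 36.0 CPM in lysate. *Tbca*, a tubulin cofactor, differed by -1.36 ± 0.24, adjusted p 1.46e-04. *Idh2* was loaded more in rpS6P-/- mice (1.19 ± 0.33, adjusted p 0.0470), as were *Plce1* (1.64 ± 0.43, adjusted p 0.0279), a phospholipase C, and *Dgkq* (1.47 ± 0.36, adjusted p 0.0172), a diacylglycerol kinase.

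These genotype differences rested on few libraries. The number of genes called was 6 without rpS6P-/- replicate 3, 314 without rpS6P-/- replicate 1, and 0 in edgeR without wild-type replicate 1, where 1050 had an unadjusted p under 0.05. With no replicate block in edgeR, 0 genes were called at an adjusted p under 0.05 and 1992 had an unadjusted p under 0.05. That fit ignores that both fractions came from the same lysate. Equally numbered libraries of the rpS6P-/- Acb, however, hardly deviated together (correlations of -0.0238, -0.0318 and 0.0673). DESeq2 with the block called 122, and with the trend on coding length removed 26 were called. In that fit *Atox1* had -0.59, adjusted p 0.481, *Tbca* -0.75, adjusted p 0.100, *Idh2* 1.08, adjusted p 0.102, *Plce1* 1.51, adjusted p 0.0700 and *Dgkq* 1.31, adjusted p 0.0640, and none of these 5 was called. The lowest gene, *Tmem38b* (-2.41 ± 0.28, adjusted p 3.91e-14), had 116, 108 and 837 CPM in the lysates and 504, 114 and 108 CPM in heavy polysomes of rpS6P-/- mice, against 85.0, 46.6 and 132 CPM in the lysates and 1004, 597 and 46.6 CPM in heavy polysomes of wild-type mice. Libraries of the same group and fraction thus differed widely for this gene. *Med30*, *Lsm1*, *Cyp2j9* and *Ccdc22* were the other genes with the most extreme values. For *Rps6* the genotype difference was 0.13 ± 0.21, adjusted p 0.914.

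More genes differed between regions of rpS6P-/- mice. Compared with the DS, 394 of 16639 genes (2.37%) had a higher and 710 (4.27%) a lower log2 difference in the Acb. Short genes held many of the lower ones, 149 of 200 up to 300 bases and 362 of 1187 from 301 to 600. Of the ribosomal proteins, 28 of 45 in the large and 21 of 30 in the small subunit were lower and 0 higher, with median differences between regions of -0.95 and -1.02. Complex I had 24 of 36 lower and 0 higher. The median coding lengths of these 3 lists lie between 301 and 600 bases, where all genes had a median difference between regions of -0.61. For *Rps29* the difference was -1.78 ± 0.22, adjusted p 1.85e-13, and for *Rps6* -0.39 ± 0.22, adjusted p 0.332. With the length trend removed, the difference of *Rps29* was -0.28, adjusted p 0.501, and it was not called. In the DS, *Rps29* had 218, 227 and 316 CPM in heavy polysomes and 624, 623 and 534 CPM in lysate. Both comparisons share the rpS6P-/- Acb libraries. Lists by group are therefore given side by side. The median of the small subunit was -1.002 in the rpS6P-/- Acb, -0.52 in the wild-type Acb and -0.05 in the rpS6P-/- DS, and that of complex I was 0.05, 0.65 and 0.96. Proteasome medians were 0.63, 0.54 and 0.58. Without single replicates of either region the number of genes called ranged from 431 to 1459, and with the length trend removed it was 533.

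The largest differences between regions belonged to genes of low level. *Pcdhgc4*, a clustered protocadherin, differed by 3.99 ± 0.88, adjusted p 4.38e-04, with 2.51, 6.26 and 7.37 CPM in heavy polysomes and 5.60, 2.38 and 5.05 CPM in lysate of the Acb, and 1.88, 0.383 and 0.0449 CPM in heavy polysomes and 5.15, 6.61 and 6.73 CPM in lysate of the DS. *Gpr25*, an orphan receptor, differed by -2.50 ± 0.71, adjusted p 0.0117, with 2.81, 2.19 and 0.732 CPM in heavy polysomes and 5.52, 10.6 and 5.56 CPM in lysate of the Acb. *Zbtb7c*, *Gpc4* and *Prlr* were the other genes with high differences, and *Gabrq*, *Zfp783*, *Zeb2os* and *Hspb6* those with low ones. *Hkdc1* was also called, but it had 0 reads in the 3 Acb lysates, so no fold is given.

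**Figure D5:**
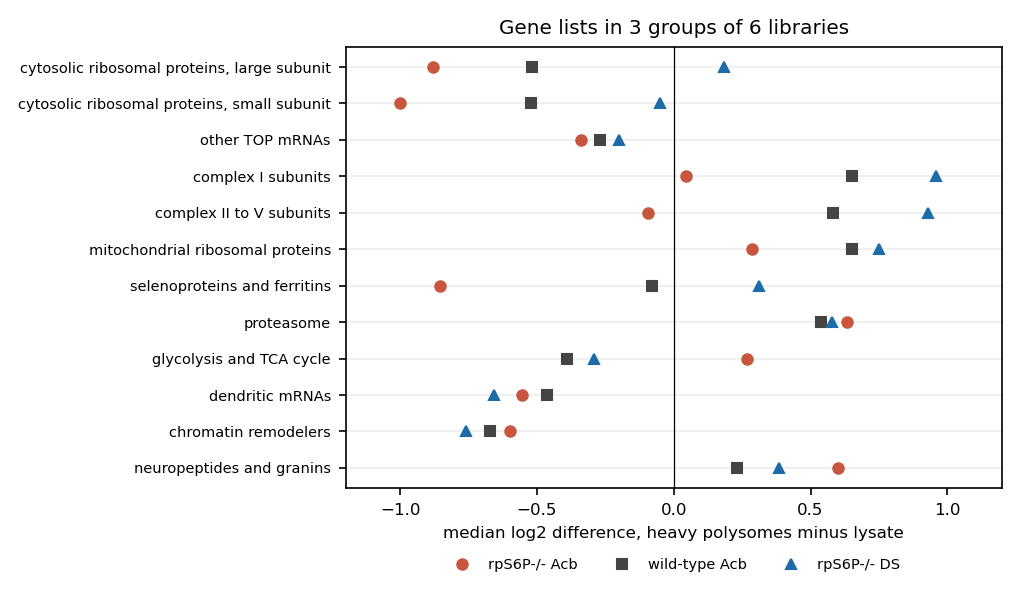
Median log2 difference between heavy polysomes and lysate of 12 gene lists, in the rpS6P-/- Acb (red circles), the wild-type Acb (dark squares) and the rpS6P-/- DS (blue triangles), each fitted on its own 6 libraries. Ribosomal protein, selenoprotein and respiratory chain lists lie lowest in the rpS6P-/- Acb, and the proteasome, dendritic and chromatin lists lie close together in the 3 groups.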

How the data were processed

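The authors sequenced poly(A)-selected, stranded libraries of lysate and heavy polysomal RNA and, per the labels, aligned reads to mm10 with TopHat2 2.0.13 and Bowtie2 2.2.3 and counted them per gene with HTSeq 0.6.1p1. The deposited values are raw read counts per gene, not normalised. Each replicate pooled mice, so p-values measure the spread between these samples. Genes with at least 15 reads summed over the libraries fitted were tested with edgeR 4.0.16 (quasi-likelihood, TMM scaling, Benjamini-Hochberg adjustment, threshold 0.05), with the replicate number as a block because both fractions came from the same lysate. Deviations of equally numbered libraries correlated by -0.0238, -0.0318 and 0.0673 over 11870 genes, and those of unequally numbered ones by -0.0938 to 0.140. Genotype and region were compared through the interaction with fraction over 12 libraries. DESeq2 1.42.0, other scalings and filters, and leaving out each replicate were alternatives. Coding lengths came from the GENCODE annotation of the same build and start windows from RefSeq. Named genes were Bc1, Rps6, the 10 most extreme called genes with at least 50 reads and no overlap in each direction, members of lists of at most 35 genes, the 2 lowest and 2 highest of each longer list, and the 5 most extreme of each interaction. Others were chosen after their values were seen. Members, lists and tests were chosen with earlier results of these data known. Statistical scripts were tested on simulated data. Some genes are not reported here.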

Additional observations from a re-analysis of the deposited data

Results flagged for a closer look

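Results of the comparisons between groups are listed here because the difference between 2 groups was itself tested, by the interaction term of edgeR. Between genotypes, 22 genes had a higher and 84 a lower difference in the rpS6P-/- Acb. The named genes were *Atox1* (-1.45), *Tbca* (-1.36), *Tmem38b* (-2.41), *Idh2* (1.19), *Plce1* (1.64) and *Dgkq* (1.47). Between regions, 394 genes had a higher and 710 a lower difference in the Acb, and the named genes were *Gpr25* (-2.50), *Pcdhgc4* (3.99) and *Rps29* (-1.78). Values are log2 differences, and both comparisons share the 6 libraries of the rpS6P-/- Acb. With the trend on coding length removed, the differences were -0.59, adjusted p 0.481 for *Atox1*, -0.75, adjusted p 0.100 for *Tbca* and -0.28, adjusted p 0.501 for *Rps29*. *Idh2* had 1.08, adjusted p 0.102, *Plce1* 1.51, adjusted p 0.0700 and *Dgkq* 1.31, adjusted p 0.0640. None of these genes was called in that fit, while *Tmem38b*, *Gpr25* and *Pcdhgc4* were. Between genotypes, 0 genes were called with no replicate block, with edgeR's expression filter or without wild-type replicate 1.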

How the results depend on the processing

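Between heavy polysomes and lysate, requiring a 1.5-fold change left 22 genes higher and 404 lower, and leaving out single replicates gave 287 to 1286 higher and 860 to 1436 lower, lowest without replicate 2, with 732 higher without replicate 1. All 2872 genes called kept their sign without each replicate in turn, and 1729, 1111 and 2250 remained called without replicates 1, 2 and 3. The replicate block changed little here: without it 1210 were higher and 1494 lower. The other scalings, filters, DESeq2, thinning and a fit of all libraries left both counts within 1.5 times. Between genotypes, 0 higher and 0 lower were called both with no replicate block (1992 at an unadjusted p under 0.05) and with edgeR's expression filter (1768), DESeq2 gave 53 higher, and removal of the length trend left 9 lower. Leaving out replicates there gave 0 to 76 higher and 0 to 238 lower: 4 and 2 without rpS6P-/- replicate 3, 0 and 0 without wild-type replicate 1 (1050 at an unadjusted p under 0.05), 76 and 238 without rpS6P-/- replicate 1, and 36, 49 and 5 higher without rpS6P-/- replicate 2, wild-type replicate 2 and wild-type replicate 3. Between regions, the expression filter gave 261 higher, removal of the length trend 207 higher and 326 lower, and leaving out replicates 60 to 591 higher and 359 to 868 lower, with 72 and 359 without Acb replicate 3, 122 higher without DS replicate 2, and 60 and 403 without DS replicate 3. The rho of coding length ranged from -0.41 to -0.22 without single replicates and was -0.28 with transcript length. Its fits without single replicates and under other scalings and filters were chosen after seeing the data. Among named genes none of which was called, the sign turned with the length trend removed for *Drd1a* (-0.0756), *Rpl10a* (-0.136) and *Rpl15* (-0.0825), and among fits without 1 replicate, which ranged from -0.0478 to 0.156 for *Rpl10a*, from -0.00693 to 0.129 for *Rpl15* and from -0.0342 to 0.206 for the genotype difference of *Rps6*. Over all named genes, the call was lost in 83 fits without 1 replicate and 113 other fits, against 368 and 1215 with the same call and direction. Named genes that lost their call between fractions were *Camk2a*, *Cars2*, *Dlgap1*, *Dusp1*, *Eif4b*, *Gpr6*, *Grin2b*, *Junb*, *Npas4*, *Npm1*, *Pfkm*, *Poc1a*, *Pvrl3*, *Slc1a3*, *Sst*, *Vars*, *Vip* without replicate 1, *Adcyap1*, *Atf4*, *Atf5*, *Atp5c1*, *Camk2a*, *Cars2*, *Dlgap1*, *Eef1g*, *Eif3g*, *Eif4b*, *Gabrg1*, *Gfap*, *Gpr6*, *Grin2b*, *Kcnj5*, *Larp1*, *Mrpl1*, *Ndufa9*, *Ndufs8*, *Npas4*, *Npm1*, *Pcsk1n*, *Pdyn*, *Pfkm*, *Poc1a*, *Rab3a*, *Rars2*, *Rptor*, *Slc1a3*, *Tac1*, *Tex30*, *Tsc2*, *Txnrd1*, *Txnrd2*, *Vgf* without replicate 2, *Adcyap1*, *Atf5*, *Dlgap1*, *Dusp1*, *Junb*, *Kcnj5*, *Mrpl33*, *Pcsk1n*, *Pdyn*, *Poc1a*, *Rpph1*, *Txnrd1*, *Txnrd2* without replicate 3, and *Cacna1h*, *Dusp1*, *Eif3g*, *Grin2b*, *Junb*, *Larp1*, *Mrpl33*, *Npm1*, *Pdyn*, *Rictor*, *Tsc2*, *Vars* with the length trend removed. This list covers only the fits without 1 replicate and the fit with the length trend removed. Calls lost under the 1.5-fold requirement are not in it, and there 426 of the 2872 genes remained called. For each of these changes the cause was not tested.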

Other observations

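Aminoacyl-tRNA synthetases fell on both sides. Of 34 tested, 6 were higher and 5 lower in heavy polysomes, with a median of -0.05, against 8.40% higher and 9.87% lower among all genes. The lower genes included the cytosolic enzymes *Vars* (-1.14 ± 0.32, adjusted p 0.00335) and *Aars* (-0.92 ± 0.19, adjusted p 5.37e-05), for valine and alanine. The mitochondrial enzymes *Rars2* (1.02 ± 0.26, adjusted p 0.00100) and *Cars2* (1.15 ± 0.38, adjusted p 0.0187), for arginine and cysteine, were higher. Synthetase genes called higher and lower numbered 1 and 1 without replicate 1, 1 and 2 without replicate 2, 4 and 5 without replicate 3, and 4 and 2 with the length trend removed, and the median over these fits ranged from -0.10 to 0.02. These p-values are from edgeR.

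Most immediate early genes, which neurons induce by activity, were not called, as among all genes (8.40% higher and 9.87% lower). Of 20 tested, 2 were higher and 1 lower (median 0.17). *Npas4* was at 9.72, 10.1 and 12.03 CPM in heavy polysomes and 17.2, 27.3 and 15.1 CPM in lysate (log2 difference -0.87 ± 0.30, adjusted p 0.0233), with no overlap. *Junb* (0.64 ± 0.22, adjusted p 0.0268) and *Dusp1* (0.76 ± 0.25, adjusted p 0.0170) were higher, with overlapping fractions. The list medians of replicates 1, 2 and 3 were 0.34, -0.46 and 0.59. Immediate early genes called higher and lower numbered 0 and 0 without replicate 1, 2 and 0 without replicate 2, 0 and 1 without replicate 3, and 0 and 2 with the length trend removed, and the median over these fits ranged from -0.06 to 0.50. Clustered protocadherins had 3 of 57 lower and 0 higher (median -0.42), and zinc finger genes had 14 of 338 lower and 5 higher (median -0.02). Protocadherins called higher and lower numbered 0 and 1 without replicate 1, 0 and 2 without replicate 2, 0 and 3 without replicate 3, and 1 and 2 with the length trend removed, and the median over these fits ranged from -0.72 to -0.13. Zinc finger genes called higher and lower numbered 1 and 6 without replicate 1, 2 and 7 without replicate 2, 6 and 13 without replicate 3, and 11 and 16 with the length trend removed, and the median over these fits ranged from -0.10 to 0.00.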
